A study of Cyprinus carpio with 18 samples.

Results

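The families miR-17, miR-18, miR-20, miR-93 and miR-106 were followed through 6 stages of common carp (Cyprinus carpio) development. Members were taken by name: every microRNA whose identifier is ccr-miR- (ccr for the carp) followed by any of these family numbers, with any letter and either arm. The rule found 8 of the 146 named microRNAs, or 8 of 2888 when the 2742 predicted microRNAs without a name are counted. They are ccr-miR-17-5p, ccr-miR-17-3p, ccr-miR-18a, ccr-miR-18b, ccr-miR-18c, ccr-miR-20a-5p, ccr-miR-20a-3p and ccr-miR-93, given below without the prefix, and 0 members belonged to miR-106. The libraries were made from RNA of whole embryos or larvae of the FFRC No.2 strain, a carp selected for farming, of genotype WT, spawned naturally and given no treatment. There were 3 libraries per stage and 18 in all: cleavage at 2 h after fertilization, blastocyst at 6 h, gastrulation at 12 h, organ formation at 20 h, hatching at 64 h, and larva at 1 day after hatching. RNA of a stage was pooled in equal amounts, per the labels' protocols, so no library stands for a single embryo. No label says whether the 3 libraries of each stage had separate parents or spawnings, so p-values rest on how far these libraries vary, in part perhaps for technical reasons.

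In vertebrates most of these microRNAs are cut from hairpins of the miR-17-92 cluster and its paralogous clusters, which are transcribed as long precursors and are best known for promoting proliferation in embryos and in tumours. miR-17, miR-20, miR-93 and miR-106 share a seed, the bases near the 5′ end that select target messenger RNAs, and in mammals they repress cell-cycle inhibitors and parts of TGF-beta signalling. miR-18 has a seed that differs from theirs at a single base. Each hairpin gives a 5p and a 3p strand, of which usually the 5p strand of miR-17 and miR-20a is loaded into Argonaute as the main guide while the other is largely degraded. miR-430, which in zebrafish clears maternal messenger RNA after the embryo's genome is switched on, shares a core of the miR-17 seed.

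Depth and makeup of the libraries varied with the stage. The 12 libraries of the first 4 stages had 60779 to 438398 counts each, and the 6 of hatching and larva had 4964459 to 8427601. The members together had 102 to 1279 counts in the early libraries and 19620 to 35200 in the late ones. miR-430 held 72.6% to 79.8% of the counts in the blastocyst against 0.174% to 1.55% at cleavage, and miR-738 held 37.3% to 76.1% at cleavage, so levels are given as CPM, counts scaled to a common library size, with TMM factors that ranged from 0.196 to 2.19. The early libraries also held microRNAs of differentiated tissue. A list of 27 microRNAs of muscle, brain, sense organs, eye, liver and blood made up 1.75% to 3.79% of the counts at cleavage, 0.436% to 1.73% in the blastocyst, 0.834% to 4.07% at gastrulation, and between 4.13% and 7.80% at organ formation. It made up 18.7% to 19.8% at hatching and 22.5% to 28.2% in the larva, and 21 to 26 of its members were detected in each library of the first 4 stages. Blastocyst libraries 2 and 3 held 1.73% and 1.56% against 0.436% in library 1, and gastrulation libraries 2 and 3 held 2.67% and 4.07% against 0.834% in library 1. The called differences below are given with and without blastocyst libraries 2 and 3 and gastrulation library 2, a set named from earlier results of these data, and gastrulation library 3 was left out only on its own. The part of these late-tissue microRNAs in the members' levels was not tested. In whole embryos, fewer cells of a type and less RNA per cell cannot be told apart.

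The named members have no sequence printed here, but the predicted microRNAs are listed by sequence, and those that begin like the family are shown because they make the shared seed visible. The seed of miR-17, miR-20, miR-93 and miR-106 is AAAGTGC at bases 2 to 8 in DNA letters (T stands for U). It was searched on the listed strand and was found at that place in 3 of 2742 predicted microRNAs (0.109%), where it stands in capitals.
Seed row 1: cAAAGTGCtcacagtgcaagtag
Seed row 2: cAAAGTGCtcacagtgcaggtagt
Seed row 3: cAAAGTGCtcacagtgcaagtagt
Seed row 1 has 23 bases and the other 2 rows have 24. The miR-18 seed, AAGGTGC at the same bases, was found in 0 predicted microRNAs. The core AAGTGC lay within the first 8 bases of 30 predicted microRNAs (1.09%), the 3 seed rows among them.

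Seed row 1 had 586 counts over 6 libraries. Cleavage library 2 had 7 of them, blastocyst library 3 had 8, the organ formation libraries had 20, 12 and 12, and larva library 2 had 527. Seed row 2 was listed with 23 counts in larva library 2 alone, and seed row 3 with 5 counts in gastrulation library 2 alone. The smallest count listed for a predicted microRNA in any library was 5. The rule by which a library lists such a row is not given, so its absence elsewhere sets no upper bound on its count.

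Another 3 predicted microRNAs (0.109%) begin with ACTGCA, in capitals below, and are shown because 1 of them pairs with the seed rows over a run of bases, as the 2 strands of a hairpin can, and the others do so less.
Start row 1: ACTGCAatgtgagcacttcaag
Start row 2: ACTGCAgtggaggcacttcaagc
Start row 3: ACTGCAgtgaaggcacttcaagc
Start row 1 held an unbroken run of 11 bases complementary to each of the 3 seed rows, and the longest such run of start rows 2 and 3 was 6 bases. Start row 1 had 5 counts in gastrulation library 2 and 70 in hatching library 3. Start row 2 had 50 counts in hatching library 2, and start row 3 had 6 in gastrulation library 2. These rows are described by their letters only, and no member's name is given to them.

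Among the guide strands, miR-20a-5p was the most counted member at every stage by its mean. Its scaled level was 938.6 CPM ± 720 (SD, n = 3) at cleavage, 636 ± 165 in the blastocyst, 1802 ± 929 at gastrulation, then 3474 ± 1590 at organ formation, 1836 ± 992 at hatching, with 804 ± 221 in the larva (SD, n = 3 each). The order of the stage means was organ formation, hatching, gastrulation, cleavage, larva and blastocyst, and the libraries of each neighbouring pair in this order overlapped. These levels rest on 517 raw counts over the cleavage libraries, 275 over the blastocyst ones, 504 at gastrulation, then 1506 at organ formation, 42260 at hatching, with 27730 in the larva, where the libraries were far deeper.

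miR-17-5p, the guide strand for which the cluster is named, followed a similar course at a lower level. Its scaled level was 249 CPM ± 101 at cleavage, 255 ± 128.3 in the blastocyst, 696 ± 527 at gastrulation, then 1403 ± 565 at organ formation, 756 ± 340 at hatching, with 335 ± 77.5 in the larva (SD, n = 3 each). The order was organ formation, hatching, gastrulation, larva, blastocyst and cleavage, again with overlap between all neighbours. Across the 18 libraries, the log2 CPM of miR-17-5p and miR-20a-5p had a Pearson r of 0.94, as a description of libraries that share depth and scaling.

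miR-20a-5p counts were 2.04 to 5.45 times those of miR-17-5p in single cleavage libraries, with a stage mean of 3.63. The stage means of this ratio were 2.75 in the blastocyst, 2.97 at gastrulation, then 2.44 at organ formation, 2.37 at hatching, with 2.38 in the larva. A permutation test of the F ratio between stages found no difference past the threshold (F = 0.781, p = 0.584, adjusted over 7 such ratios p = 0.584), which does not show that the ratio is constant. These strands differ by few bases in other vertebrates, and how reads shared by near-identical microRNAs were assigned is not given in the sources used here. Single members are therefore less certain than their sum. Mature strands have nearly the same length and the counts hold no length term, but how well each strand is captured in a library was not measured.

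**Figure D1:**
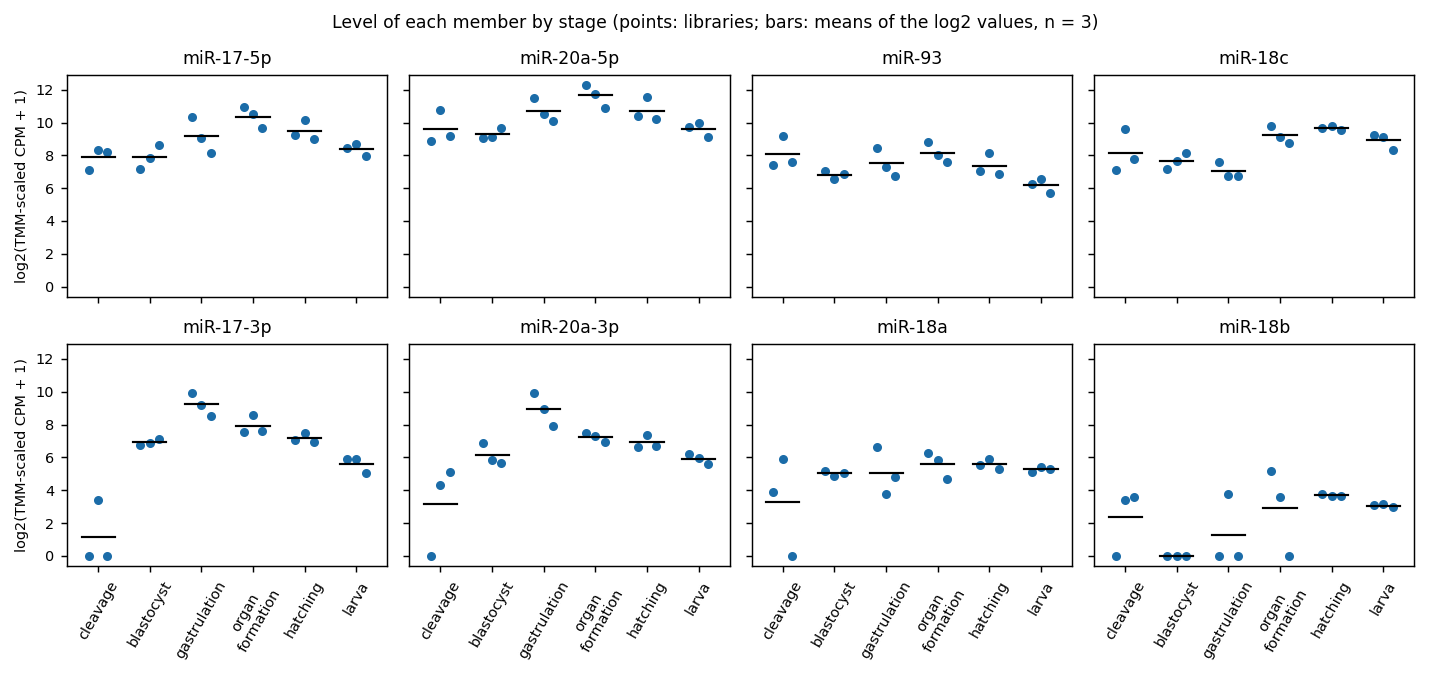
Level of each of the 8 members by stage, as log2 of the TMM-scaled CPM plus 1, with 1 point per library and a bar at the mean of the 3 log2 values. miR-17-5p and miR-20a-5p have their highest mean at organ formation, miR-17-3p and miR-20a-3p at gastrulation, and miR-17-3p is at 0 in 2 of the 3 cleavage libraries.

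miR-93, the same-seed member whose mammalian gene lies in the miR-106b-25 cluster, had its highest mean at cleavage. It had 176 raw counts over the cleavage libraries, 45 in the blastocyst, 55 at gastrulation, then 135 at organ formation, 4077 at hatching, with 2520 in the larva. The scaled level was 317 CPM ± 237 at cleavage, 112 ± 18.3 in the blastocyst, 205 ± 129 at gastrulation, then 300.1 ± 139 at organ formation, 176 ± 90.7 at hatching, with 72.7 ± 20.1 in the larva (SD, n = 3 each). Cleavage libraries 1 and 3 stood at 172 and 189 CPM and library 2 at 590.3, while the larva libraries stood at 73.8, 92.1 and 52.0. The blastocyst libraries stood at 129.7, 93.2 and 113, those of gastrulation at 351, 156 and 106.9, those of organ formation at 457, 254 and 189.7, and those of hatching at 132, 280.4 and 115.8. The stage means fell in the order cleavage, organ formation, gastrulation, hatching, blastocyst and larva. Of the neighbours in this order, only blastocyst and larva had libraries that did not overlap. No share of all tested microRNAs is given for that pair.

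Within the same-seed guide strands, the part of miR-93 shrank. It held 20.7% ± 2.61 of the summed counts of miR-17-5p, miR-20a-5p and miR-93 at cleavage and 11.8% ± 3.96 in the blastocyst (SD, n = 3). The share was 7.46% ± 0.323 at gastrulation, then 5.86% ± 0.827 at organ formation, 6.36% ± 0.0674 at hatching, with 5.99% ± 0.228 in the larva (SD, n = 3 each). The cleavage libraries, at 22.4%, 22.02% and 17.7%, all lay above the blastocyst libraries, at 16.2%, 10.7% and 8.50%, and these all lay above the gastrulation libraries. By a permutation test of the F ratio, the stages differed in the ratio of miR-93 to the other two (F = 30.1, permutation p = 1e-05, which is as low as 100000 permutations go, adjusted p = 1.75e-05). This ratio was chosen for testing after its values were seen. It needs no scaling between libraries, and cleavage library 2, whose scaled level stood apart, did not stand apart in it.

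The miR-18 members carry the seed with a changed base. miR-18c was the main one, with 75.9% ± 7.99 of the miR-18 counts at gastrulation and stage means of 85.8% to 93.2% at the other stages. Its raw counts were 29, 158 and 20 at cleavage, 12, 28 and 53 in the blastocyst, 10, 17 and 12 at gastrulation, and 129, 51 and 103 at organ formation. They were 8522, 5392 and 6113 at hatching and 5794, 5938 and 5238 in the larva. The scaled level was 374 CPM ± 341 at cleavage, 209.5 ± 72.7 in the blastocyst, 136 ± 51.0 at gastrulation, then 627 ± 240.1 at organ formation, 809 ± 61.6 at hatching, with 498 ± 152.95 in the larva (SD, n = 3 each). The gastrulation libraries, at 195.01, 106.3 and 106.9 CPM, all lay below the organ formation libraries, at 892, 564 and 425. In the order hatching, organ formation, larva, cleavage, blastocyst and gastrulation, all neighbours overlapped.

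miR-18a and miR-18b were scarce. miR-18a had 0 to 12 counts in each library of the first 4 stages, 316 to 480 at hatching and 324 to 626 in the larva, with stage means from 24.0 CPM at cleavage to 52.0 at organ formation and overlap between all neighbours in the order of its stages. miR-18b had 0 counts in all 3 blastocyst libraries, 0 to 5 in the other early libraries, 71 to 136 at hatching and 72 to 109 in the larva. It did not pass the filter on low counts and was not tested. Its scaled levels of 11.5 to 12.8 CPM at hatching lay above those of 6.74 to 7.81 in the larva.

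The miR-18 members and the miR-17 seed group did not keep a fixed proportion through development. Over the 6 members that are not 3p strands, miR-18a, miR-18b and miR-18c together held 19.3% ± 3.90 of the counts at cleavage, 19.4% ± 1.36 in the blastocyst, against 6.75% ± 1.47 at gastrulation (SD, n = 3 each). The share was 12.0% ± 1.27 at organ formation, 25.8% ± 7.10 at hatching, with 30.9% ± 2.46 in the larva (SD, n = 3 each). The gastrulation libraries, at 6.12%, 5.71% and 8.43%, lay below the libraries of every other stage, and the organ formation libraries, at 11.8%, 10.9% and 13.4%, lay below those of the remaining 4 stages. At hatching, library 2 stood at 17.6% and libraries 1 and 3 at 29.6% and 30.3%. Stages differed in this ratio by the same permutation test (F = 25.5, p = 1e-05, the smallest possible, adjusted p = 1.75e-05), and F was 52.2 without hatching library 2 (permutation p = 1e-05).

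**Figure D2:**
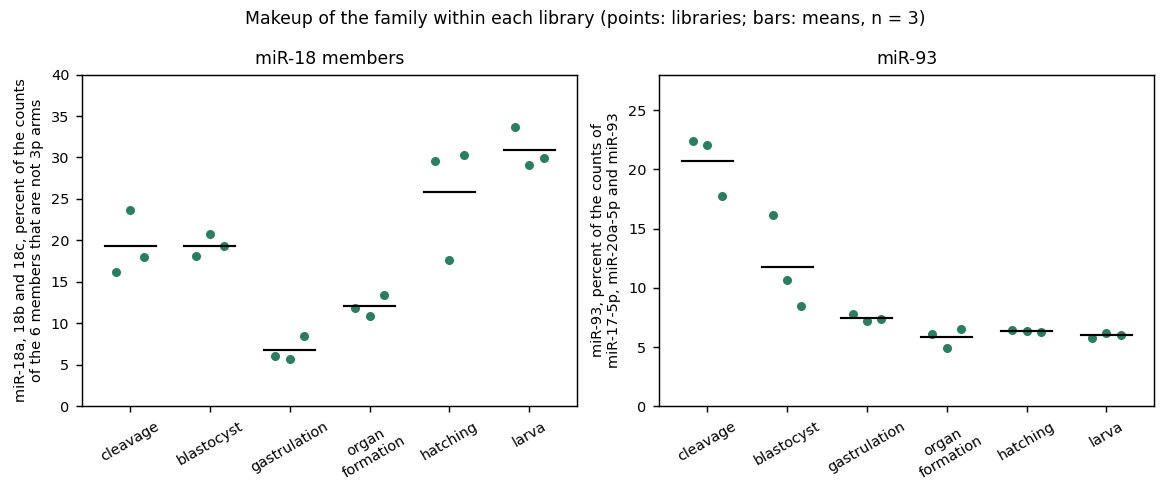
Percent of counts within each library held by the 3 miR-18 members among the 6 members that are not 3p strands (left) and by miR-93 among miR-17-5p, miR-20a-5p and miR-93 (right), with 1 point per library and a bar at the mean of 3. The miR-18 share has its lowest mean at gastrulation, 6.75%, and its highest in the larva, 30.9%, while the miR-93 share falls from 20.7% at cleavage to between 5.86% and 7.46% from gastrulation on.

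The 3p strands, the partners of the guide strands in the hairpins, had a course of their own. miR-17-3p had 0, 2 and 0 counts in the 3 cleavage libraries, 9, 16 and 26 in the blastocyst, 50, 94 and 42 at gastrulation, and 27, 34 and 47 at organ formation. It had 1385, 1106 and 999 counts at hatching and 555, 628 and 521 in the larva. The scaled level was 0, 9.68 and 0 CPM in the cleavage libraries, and 106.1, 115 and 140.4 in the blastocyst. It was 975, 588 and 374 at gastrulation, 187, 376 and 193.8 at organ formation, 131, 179 and 122.4 at hatching, and 58.6, 59.1 and 32.2 in the larva. Every blastocyst library thus lay above every cleavage library and below every gastrulation library. The stage means fell in the order gastrulation, organ formation, hatching, blastocyst, larva and cleavage. Gastrulation and organ formation overlapped, as did hatching and blastocyst, and the other neighbours did not. Of these other pairs, the share of all tested microRNAs without overlap is given below for larva and cleavage alone. As a share of library totals the highest mean was at organ formation, 0.0410% against 0.0306% at gastrulation, with overlapping libraries. Cleavage and blastocyst libraries overlapped on that base too.

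miR-20a-3p had 0, 4 and 3 counts at cleavage, 10, 8 and 9 in the blastocyst, 49, 79 and 27 at gastrulation, and 26, 14 and 30 at organ formation. It had 1059, 1022 and 856 counts at hatching and 695, 665 and 761 in the larva. The scaled level was 0, 19.4 and 33.4 CPM at cleavage, 118, 57.4 and 48.6 in the blastocyst, and 956, 494 and 241 at gastrulation. It was 179.8, 155 and 123.7 at organ formation, 100.04, 105 and 165 at hatching, and 73.3, 62.6 and 47.1 in the larva. On this scale gastrulation libraries lay above those of every other stage, and cleavage libraries below them. The other neighbours in the order gastrulation, organ formation, hatching, blastocyst, larva and cleavage overlapped. As a share of library totals the mean was 0.0252% at gastrulation and 0.0256% at organ formation, with overlapping libraries. Cleavage and blastocyst libraries overlapped on that base too. Over the 18 libraries the log2 CPM of both 3p strands had a Pearson r of 0.86, and miR-17-3p had r = 0.08 with miR-18c.

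Set against its own guide strand in the same library, miR-17-3p went from 0 to 2 counts at cleavage to about as many counts as miR-17-5p at gastrulation, and then to a smaller share again. Its share of the counts of both strands was 0.966% ± 1.67 at cleavage, 34.2% ± 8.33 in the blastocyst, against 51.1% ± 7.36 at gastrulation (SD, n = 3 each). It was 16.2% ± 6.46 at organ formation, 16.8% ± 2.91 at hatching, with 12.8% ± 1.497 in the larva (SD, n = 3 each). The gastrulation libraries had 43.1%, 52.8% and 57.5%, with exact binomial 95% intervals of 33.9% to 52.6%, 45.2% to 60.3% and 45.4% to 69.03%. At cleavage the upper bounds were 11.9%, 10.1% and 13.2%. The blastocyst libraries had 42.9%, 33.3% and 26.3%, with intervals of 21.8% to 66.0%, 20.4% to 48.4% and 17.9% to 36.1%. Blastocyst library 1, with 9 counts of miR-17-3p and 12 of miR-17-5p, thus stood just below gastrulation library 1. Its interval covers the shares of all gastrulation libraries. Intervals of this kind hold the counting error alone, because no molecular identifiers mark reads copied from the same molecule. By the shares themselves, the libraries of gastrulation, blastocyst, the 3 later stages as a group, and cleavage did not overlap. Those of organ formation, hatching and larva overlapped each other.

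miR-20a-3p held 2.15% ± 2.83 of the counts of both miR-20a strands at cleavage, 11.05% ± 6.47 in the blastocyst, against 22.8% ± 3.85 at gastrulation (SD, n = 3 each). The share was 4.61% ± 1.38 at organ formation, 6.76% ± 1.39 at hatching, with 7.18% ± 1.07 in the larva (SD, n = 3 each). Gastrulation libraries, at 25.1%, 24.9% and 18.4%, lay above all others, and the libraries of the remaining neighbours in the order of means overlapped. Blastocyst library 1 stood at 18.2%, with an exact 95% interval of 9.08% to 30.9%, and libraries 2 and 3 at 9.41% and 5.56%.

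Over both hairpins, the ratio of 3p to 5p counts was not the same at all stages when stages were permuted (F = 13.5, permutation p = 1e-05, the smallest possible, adjusted p = 1.75e-05). The test was past the threshold for miR-17 alone (F = 39.7, permutation p = 1e-05, adjusted p = 1.75e-05) and for miR-20a alone (F = 7.12, permutation p = 0.00094, adjusted p = 0.0011). The adjustment is over 7 ratios, 4 of which were chosen after their values were seen. These 4 were those of miR-17 alone and miR-20a alone, of miR-93, and of miR-20a-5p against miR-17-5p. With the cleavage stage left out, a choice also made after seeing the data, the ratio over both hairpins gave F = 18.7 (permutation p = 0.00012). Without blastocyst libraries 2 and 3 and gastrulation library 2 it gave F = 9.22 (permutation p = 0.00154). No pair of stages was tested alone, since 3 libraries against 3 cannot pass the threshold in an exact permutation test. Which strand of a hairpin is captured better was not measured, so a share does not say how much of each strand a cell held, and only its change between stages is compared.

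**Figure D3:**
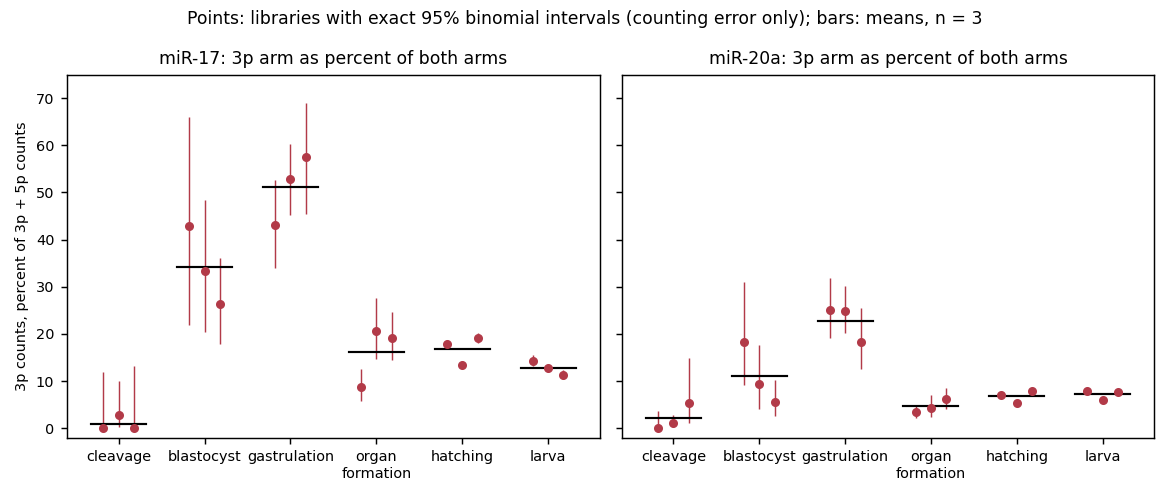
Share of the 3p strand in the counts of both strands for miR-17 (left) and miR-20a (right), in percent, with 1 point per library, exact binomial 95% intervals for counting error, and a bar at the mean of 3. Both shares have their highest mean at gastrulation, 51.1% for miR-17 and 22.8% for miR-20a, and the cleavage libraries of miR-17 lie below all others.

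Taken as a share of all counts, which needs no scaling factor but moves with miR-430 and miR-738, the 8 members together held 0.346% ± 0.372 at cleavage, 0.0498% ± 0.0271 in the blastocyst, against 0.188% ± 0.0293 at gastrulation (SD, n = 3 each). They held 1.06% ± 0.498 at organ formation, 0.556% ± 0.124 at hatching, with 0.325% ± 0.0655 in the larva (SD, n = 3 each). Cleavage library 2 held 0.776% and the other cleavage libraries 0.145% and 0.118%. Blastocyst libraries lay below those of every other stage. Stages differed in the share when stages were permuted (F = 11.4, permutation p = 0.00015, adjusted p = 0.00021), with F = 30.1 when the cleavage stage was left out (permutation p = 1e-05).

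Without the counts of miR-430 and miR-738 the share was 0.749% ± 0.679 at cleavage, 0.398% ± 0.117 in the blastocyst, 1.24% ± 0.715 at gastrulation, then 2.20% ± 1.40 at organ formation, 0.592% ± 0.127 at hatching, with 0.331% ± 0.0693 in the larva (SD, n = 3 each). On that base the libraries of every neighbouring pair in the order of means overlapped, and the permutation test of the F ratio gave F = 4.30 (p = 0.0215). Organ formation had the highest mean and blastocyst was no longer the lowest.

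**Figure D4:**
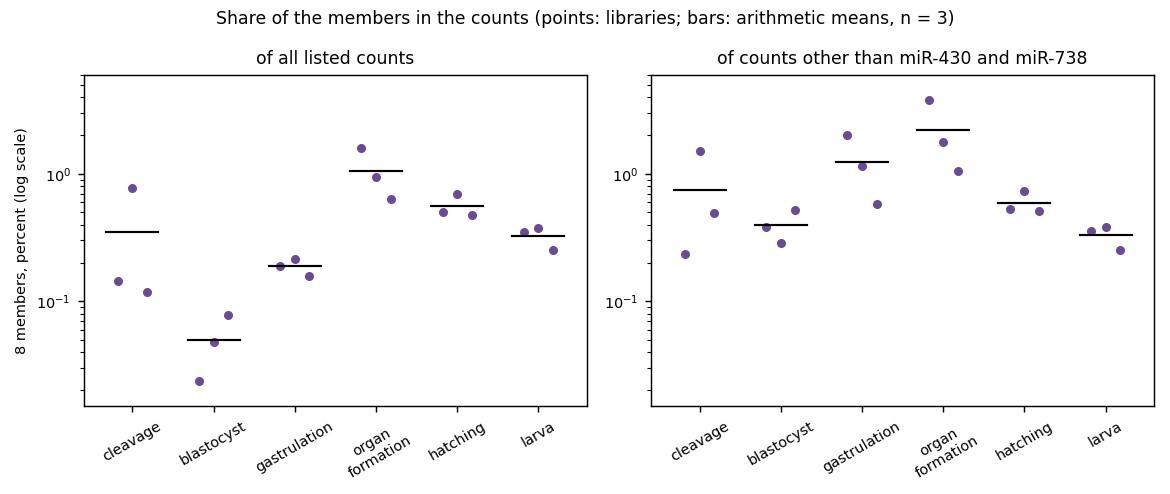
Percent of counts held by the 8 members together, on a log scale, of all listed counts (left) and of the counts other than those of miR-430 and miR-738 (right), with 1 point per library and a bar at the arithmetic mean of 3. On the left the blastocyst libraries lie lowest, with a mean of 0.0498%, and on the right the larva has the lowest mean, 0.331%.

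miR-430 was counted against the 6 members that are not 3p strands because it is described as sharing a core of their seed. The sequence of the carp miR-430 was not checked. There were 1.98 ± 0.445 miR-430 counts per member count at cleavage, 2316 ± 1633 in the blastocyst, 391 ± 49.0 at gastrulation, then 37.8 ± 13.2 at organ formation, 11.9 ± 3.98 at hatching, with 4.46 ± 2.39 in the larva (SD, n = 3 each). The blastocyst libraries ranged from 1045 to 4158. This ratio was not tested, since the abundance of miR-430 was known from earlier results of these data.

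The differences between stages were tested for each microRNA with edgeR's quasi-likelihood test over the 328 microRNAs that passed the filter on low counts, 7 of the 8 members among them, with Benjamini-Hochberg adjustment within each comparison and a threshold of 0.05. Neighbouring comparisons share the libraries of a stage, so they are not independent. Over all stages at once, 6 of the 7 tested members differed, all but miR-18a (adjusted p = 0.903), against 75.3% of all 328. Fold changes are relative to TMM scaling. With library totals in its place the median log2 fold change of all 328 was -1.97 from cleavage to blastocyst, where under TMM it was 0, and 0.52, 0.42, 0.70, 0 and 0.30 in the 5 comparisons that follow, in the order given here.

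From cleavage to blastocyst, miR-17-3p rose and the guide strands did not pass the test. The log2 fold change of miR-17-3p was 4.99 ± 0.85 (SE, 3 libraries per stage; edgeR quasi-likelihood test, adjusted p = 0.00201). It rests on 2 counts over the cleavage libraries and 51 over the blastocyst libraries, a ratio of 31.9 at equal effective depth with an exact 95% counting interval of 8.38 to 270.4. It was 1 of 7 tested members to be called, against 7.62% of all 328, or 6.10% called higher and 1.52% lower. These are 20 higher and 5 lower, which became 12 and 98 with library totals. miR-20a-3p had a log2 fold change of 2.19 ± 0.88 (SE) and an adjusted p of 0.163 in the same edgeR test. On the TMM scale both 3p strands had every blastocyst library above every cleavage library, against 7.01% of all 328, and miR-93 had every one below, against 5.18%. As shares of library totals, the libraries of both 3p strands overlapped. On that base miR-93, miR-17-5p, miR-18c and miR-20a-5p had every blastocyst library below every cleavage library. How many of all 328 did so on that base was not counted. Their median log2 fold change with library totals was -1.97, so a lower share is not particular to the members. The log2 fold change of miR-93 was -1.51 ± 0.62 and that of miR-17-5p 0.05 ± 0.59 (SE). The median over the 7 members was 0.05, and that of all 328 was 0.

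The call of miR-17-3p was kept in all 28 alternatives tried, with edgeR or DESeq2 adjusted p-values from 2.37e-05 to 0.0389. The highest came from library totals, where the log2 fold change was 2.66. Without cleavage library 2, the only cleavage library with any miR-17-3p count, the fitted log2 fold change was 11.8 and depends on how 0 is treated (edgeR adjusted p = 0.00037). Without blastocyst libraries 2 and 3 and gastrulation library 2 it was 4.77 (edgeR adjusted p = 0.0261). With library totals in place of TMM, 4 members were called lower: miR-93 by a log2 fold change of -3.99, miR-18c by -3.21, miR-20a-5p by -2.95 and miR-17-5p by -2.07. Under TMM miR-93, miR-18c and miR-20a-5p had the same direction and did not pass, and miR-17-5p had the opposite one.

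From blastocyst to gastrulation both 3p strands rose. The log2 fold change was 2.41 ± 0.66 for miR-17-3p and 2.93 ± 0.82 for miR-20a-3p (SE, 3 libraries per stage; edgeR adjusted p = 0.0448 and 0.0464). Both had every gastrulation library above every blastocyst library, as had miR-20a-5p, so that 3 of 7 members had no overlap in this direction against 6.40% of all 328. The 2 calls of 7, both higher, stand against 7.01% of all 328, 3.05% higher and 3.96% lower. These are 10 higher and 13 lower, which became 7 and 15 under RLE size factors and 13 and 7 with library totals. miR-20a-5p, at 1.495 ± 0.58, and miR-17-5p, at 1.43 ± 0.60, did not pass (SE, edgeR adjusted p = 0.152 and 0.168), nor did miR-18c at -0.66 ± 0.58. The member median was 1.43, and that of all 328 was 0.

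Both calls lie close to the threshold. Both were lost with RLE size factors (edgeR adjusted p = 0.0634 for miR-17-3p and 0.0871 for miR-20a-3p) and without the filter on low counts (0.954 and 0.735). Both were also lost with at least 10 CPM in 3 libraries (0.126 for each) and with unlisted predicted microRNAs as 4 (0.373 and 0.0750). In this order, these settings called 22 of 328, 6 of 2886, 20 of 460 and 28 of 2869 among all microRNAs tested. The call of miR-17-3p was lost when any of 11 single libraries was left out, at edgeR adjusted p-values of 0.0538 to 0.150: each blastocyst and hatching library, gastrulation libraries 1 and 2, organ formation library 3 and larva libraries 1 and 2. With 1 library left out, that of miR-20a-3p was kept only without cleavage library 1 or 3 or gastrulation library 3, and lost without any of the other 15 at 0.0555 to 0.164. Without blastocyst libraries 2 and 3 and gastrulation library 2 the log2 fold changes were 2.14 and 1.75 (edgeR adjusted p = 0.277 and 0.433). The rise itself had the same direction in all 28 alternatives, from 1.86 to 2.89 for miR-17-3p and from 1.75 to 3.53 for miR-20a-3p.

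From gastrulation to organ formation miR-18c rose, with a log2 fold change of 2.23 ± 0.60 (SE, 3 libraries per stage; edgeR adjusted p = 0.0451) and every organ formation library above every gastrulation library, as in 8.54% of all 328. It was 1 of 7 tested members called, against 6.10% of all 328, 1.83% higher and 4.27% lower. These are 6 higher and 14 lower, which became 13 and 12 under RLE size factors and 41 and 6 with library totals. The log2 fold change was 1.02 ± 0.59 for miR-17-5p, 0.95 ± 0.57 for miR-20a-5p and 0.57 ± 0.61 for miR-93 (SE). For the 3p strands it was -1.36 ± 0.63 for miR-17-3p and -1.88 ± 0.78 for miR-20a-3p (SE), neither past the threshold (edgeR adjusted p = 0.209 and 0.158). With library totals both turned, to 0.42 and 0.020. DESeq2 called both lower, as were 37 of all 328. With named microRNAs only, miR-20a-3p was called lower, as were 12 of 127. Of the 3p strands, miR-20a-3p had every organ formation library below every gastrulation library on the TMM scale, as in 14.6% of all 328. As shares of library totals these libraries overlapped. The member median was 0.57, and that of all 328 was -0.31.

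Without the filter on low counts, where 4 of all 2886 tested were called, the call of miR-18c was lost (edgeR adjusted p = 0.515). With unlisted predicted microRNAs as 4, where 2 of 2869 were called, it was lost too (edgeR adjusted p = 0.257). It was also lost without any of 11 single libraries, at edgeR adjusted p-values of 0.055 to 0.131: each gastrulation and hatching library, blastocyst library 2, organ formation libraries 1 and 2, and larva libraries 1 and 2. Its log2 fold change kept its direction in all 28 alternatives, from 1.88 to 3.998. Without blastocyst libraries 2 and 3 and gastrulation library 2 it was 2.46 (edgeR adjusted p = 0.0739). With library totals 4 members were called higher in this step, miR-18c with a log2 fold change of 3.998, miR-17-5p with 2.98, miR-20a-5p with 2.80 and miR-93 with 2.47.

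From organ formation to hatching 0 of 7 members passed the edgeR test, and 0 had an unadjusted p under 0.05, against 27.1% of all 328 called, 18.3% higher and 8.84% lower. These are 60 higher and 29 lower, which became 36 and 43 under RLE size factors and 38 and 31 with library totals. The log2 fold change was -0.92 ± 0.57 for miR-20a-5p, -0.89 ± 0.58 for miR-17-5p, -0.80 ± 0.62 for miR-17-3p and 0.37 ± 0.56 for miR-18c (SE). DESeq2 called 4 members lower, miR-17-3p, miR-17-5p, miR-20a-5p and miR-93, where 53 of all 328 were called lower and 37 higher. RLE size factors in edgeR called 2 lower, miR-17-5p at -1.88 and miR-20a-5p at -1.94. Without cleavage library 1, 3 members were called lower, as were 41 of all 328. Without blastocyst library 1, 2 were, as were 39 of all 328. With unlisted predicted microRNAs counted as 4, all 7 were called higher, as were 597 of all 2869 tested. The member median was -0.77, and that of all 328, most of them predicted microRNAs, was 0.87. The latter depends on the setting. It was 0.056 with RLE size factors, and -0.165 over the 127 microRNAs tested with named microRNAs only. Under TMM all tested members but miR-18c were lower, and all 7 were lower with RLE size factors. miR-18c turned to -0.54 there and to -0.69 with named microRNAs only.

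From hatching to larva 0 of 7 members passed the edgeR test, against 0.305% of all 328, or 0.00% higher and 0.305% lower, and 1 had an unadjusted p under 0.05, miR-17-3p at -1.53 ± 0.63 (SE, adjusted p = 0.272). DESeq2 called miR-17-3p lower. Of all 328, edgeR called 0 higher and 1 lower, and these numbers were the same with RLE size factors and with library totals. They became 18 higher and 11 lower with DESeq2. With named microRNAs only, edgeR called 22 of 127 higher and 0 lower, so the share called in this step depends on the setting. Each of miR-17-5p, miR-17-3p, miR-18c, miR-20a-5p, miR-20a-3p and miR-93 had every larva library below every hatching library. These 6 of 7 tested members stand against 30.5% of all 328 with no overlap in this direction. Their log2 fold changes ranged from -0.70 for miR-18c to -1.53 for miR-17-3p. The member median was -1.18, and that of all 328 was -0.16.

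Between the first stage and the last, miR-17-3p was higher and miR-93 lower in the larva. The log2 fold change of larva against cleavage was 3.72 ± 0.83 for miR-17-3p (SE, 3 libraries per stage; edgeR adjusted p = 0.00232), from 2 counts at cleavage and 1704 in the larva, a ratio of 12.0 at equal effective depth with an exact 95% counting interval of 3.32 to 99.4. That of miR-93 was -2.13 ± 0.62 (SE, edgeR adjusted p = 0.00888). The 2 calls of 7 stand against 61.0% of all 328, 31.1% higher and 29.9% lower. Both 3p strands had every larva library above every cleavage library, as in 38.4% of all 328, and miR-93 had every one below, as in 24.4%. miR-20a-3p, at 1.92 ± 0.85 (SE), had an edgeR adjusted p of 0.0639. The guide strands miR-17-5p and miR-20a-5p had log2 fold changes of 0.43 ± 0.58 and -0.23 ± 0.57, and miR-18c had 0.41 ± 0.56 (SE). The member median was 0.43, and that of all 328 was 0.15.

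Cleavage library 2, which had the most member counts of its stage, bears on both of these calls. Without it the log2 fold change of miR-93 was -1.31 and no longer past the threshold (edgeR adjusted p = 0.0709), and that of miR-17-3p was 10.5 from 0 counts (edgeR adjusted p = 0.00046). Without cleavage library 1 miR-17-3p stood at 2.48 (edgeR adjusted p = 0.0127). The call of miR-17-3p was kept in all 28 alternatives and that of miR-93 in 25. It was also lost without the filter on low counts (edgeR adjusted p = 0.184), where 130 of all 2886 tested were called. miR-93 turned to 3.81 when predicted microRNAs that a library does not list were counted as 4. Under that setting all 7 tested members were called higher in the larva, as were 616 of all 2869 tested. Without blastocyst libraries 2 and 3 and gastrulation library 2 the values were 3.15 and -2.70 (edgeR adjusted p = 0.00927 and 0.00484).

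**Figure D5:**
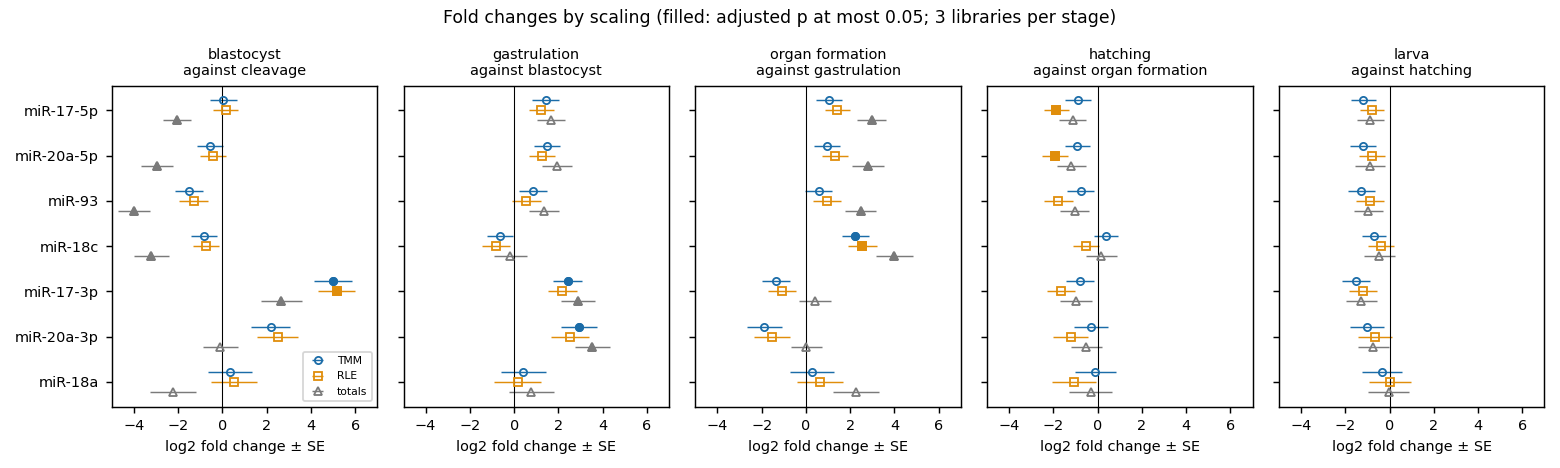
Log2 fold change of the 7 tested members in the 5 comparisons of neighbouring stages, with the standard error as a horizontal line, under TMM, RLE and library-total scaling; filled symbols are past the threshold. miR-17-3p lies to the right in the first 2 comparisons under all 3 scalings. From cleavage to blastocyst miR-20a-5p, miR-93 and miR-18c lie to the left under all 3. There miR-17-5p, miR-18a and miR-20a-3p lie to the left only under library totals.

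The other families of the same clusters, miR-19, miR-25, miR-92 and miR-363, had 5 named microRNAs (miR-19d, miR-25, miR-92a, miR-92b and miR-363), all of which were tested. None of them was called in the first 3 comparisons or from hatching to larva by edgeR. Of all 328, 7.62%, 7.01%, 6.10% and 0.305% were called in these comparisons, so 0 of 5 is near that share. By comparison, 1, 2 and 1 of the 7 tested members were called in the first 3. The calls at gastrulation were kept in only 11 and 7 of 28 alternatives, and that at organ formation in 13. Alternatives for the 5 microRNAs are not given here. The contrast between members and these 5 was not itself tested. From organ formation to hatching miR-92b rose by a log2 fold change of 2.01 ± 0.67 (SE, edgeR adjusted p = 0.0361). Between cleavage and larva miR-92b rose by 4.16 ± 0.74, miR-363 by 1.73 ± 0.43 and miR-92a by 1.16 ± 0.38 (SE, edgeR adjusted p = 0.00049, 0.00405 and 0.0153), and miR-19d changed by -1.85 ± 0.50 (SE, edgeR adjusted p = 0.00583). Of all 328, 27.1% were called from organ formation to hatching and 61.0% between cleavage and larva.

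Among 120 other named microRNAs, those whose log2 CPM was most like a member's over the 18 libraries were found by Pearson r, as a description of libraries that share depth and scaling. For miR-17-3p they were miR-139 (r = 0.79), miR-430 (r = 0.75) and miR-203b-5p (r = 0.70). For miR-20a-3p they were miR-203b-5p (r = 0.85), miR-430 (r = 0.61) and miR-203b-3p (r = 0.59). For miR-18c they were miR-153b (r = 0.87), miR-205 (r = 0.83) and miR-457a (r = 0.75), none of which was on the list of either 3p strand. The mean of the tested members was most like miR-203b-3p (r = 0.81), miR-203b-5p (r = 0.80) and miR-139 (r = 0.77).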

How the data were processed

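For each library the authors deposited raw, whole-number counts of reads per mature microRNA, and also TPM values. For named microRNAs above a minimum count, the deposited TPM follow the counts in strict proportion, with deviations of at most 0.0257%. Predicted and scarcer microRNAs were not compared. The TPM imply totals 1.02 to 1.51 times the listed counts. TPM served only for those totals. The submitters' processing notes name FastQC and edgeR. Not given in the sources used here are the aligner, the build, how shared reads were counted and what predicted microRNAs. Predicted microRNAs appear from 5 counts up, and those that a library does not list entered as 0, whatever their true count.

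Counts were scaled with TMM, passed through filterByExpr by stage (minimum 10) and fitted over all 18 libraries with edgeR 4.0.16 (glmQLFit robust, glmQLFTest; limma 3.58.1, R 4.3.3). The fit left 12 residual degrees of freedom, and its common BCV was 0.855. Benjamini-Hochberg adjustment ran over the 328 tested microRNAs. The code of the fit was checked on simulated data with a smaller spread than these libraries have. How the fit performs at the spread found here was not tested. Shares and ratios (pseudocount 0.5, log2) were tested by the F ratio against 100000 permutations of the stages (two-sided by construction) in Python 3.11.15 with numpy 2.4.6, pandas 2.3.3 and scipy 1.17.1. Figures come from matplotlib 3.10.9. Depending on the library, 1 scaled CPM stood for 0.0513 to 16.2 counts. Any 2 replicates differed by a chi-square of at least 35.3 per degree of freedom, so none was counted as a repeat deposit.

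Alternatives were other scalings (RLE size factors, library totals, TMM with singleton pairing), other filters (none, or 10 CPM in 3 libraries), DESeq2 1.42.0, named microRNAs only, and unlisted predicted microRNAs as 4. Further ones were the replicate number as a block, each library left out with the same microRNAs tested, blastocyst 2 and 3 and gastrulation 2 left out together, other pseudocounts and denominators, and, added after seeing the data, the cleavage stage left out and all alternatives of the 4 component ratios. Every member is named, with miR-19, miR-25, miR-92 and miR-363 beside them, miR-430 and miR-738, and the 3 named microRNAs most like miR-17-3p, miR-18c, miR-20a-3p and the members' mean. The members and all lists were chosen with earlier results of these data known.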

Additional observations from a re-analysis of the deposited data

How the results depend on the processing

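Of the 7 tests on ratios and shares, 6 stayed past the threshold in each of the 23 or 24 alternatives tried, with a highest permutation p of 0.0215, and that of miR-20a-5p against miR-17-5p passed in none of 23. Those of the single hairpins, of miR-93 and of miR-20a-5p against miR-17-5p were given alternatives only after the data were seen. Of the 6 called fold changes, both of miR-17-3p that involve cleavage were kept in all 28 alternatives, that of miR-93 in 25, that of miR-18c in 13, and those of miR-17-3p and miR-20a-3p from blastocyst to gastrulation in 11 and 7. Where a count of called members moved, the cause was not tested.

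Counts of called members changed as follows. From cleavage to blastocyst the 1 became 5 with library totals and 2 with DESeq2 or named microRNAs only. From blastocyst to gastrulation the 2 became 0 with RLE size factors, no filter, at least 10 CPM in 3 libraries, unlisted predicted microRNAs as 4, the replicate block, or without blastocyst 2 and 3 and gastrulation 2, and 0 to 2 with 1 library left out. From gastrulation to organ formation the 1 became 4 with library totals or DESeq2, 2 with named microRNAs only, 0 with no filter, unlisted as 4, the replicate block or those 3 libraries left out, and 0 to 1 with 1 library left out. From organ formation to hatching the 0 became 2 with RLE, 4 with DESeq2 or named only, 7 with unlisted as 4, 1 without those 3 libraries, and 0 to 3 with 1 library left out. From hatching to larva the 0 became 1 with DESeq2, and for larva against cleavage the 2 became 1 with no filter and 7 with unlisted as 4. From gastrulation to organ formation, the 4 with library totals were all higher. There DESeq2 called both 3p strands lower and miR-17-5p and miR-18c higher. Named microRNAs only called miR-20a-3p lower and miR-18c higher in that step. The numbers called among all microRNAs tested moved with the setting too. In the same order of comparisons they were 49, 43, 63, 90, 29 and 201 of 328 with DESeq2. They were 16, 7, 24, 38, 22 and 85 of 127 with named only, and 20, 28, 2, 613, 136 and 668 of 2869 with unlisted as 4.

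Of 42 log2 fold changes, 62 values over all alternatives changed direction, and only that of miR-93 in the larva against cleavage was of a called result. With unlisted predicted microRNAs as 4, values from organ formation to hatching became 4.97 for miR-17-3p, 4.82 for miR-17-5p, 5.66 for miR-18a, 5.35 for miR-20a-3p, 4.78 for miR-20a-5p and 4.88 for miR-93. Larva against cleavage became 5.72 for miR-20a-5p and 3.81 for miR-93. miR-18a became -0.20, -0.37 and 0.27 from cleavage to blastocyst, on to gastrulation, and from hatching to larva, and miR-17-5p became -0.060 in the first of these. With library totals miR-17-3p and miR-20a-3p became 0.42 and 0.020 from gastrulation to organ formation, and miR-17-5p, miR-18a and miR-20a-3p became -2.07, -2.22 and -0.091 from cleavage to blastocyst. TMM with singleton pairing gave -0.016 for miR-17-5p in that step and 0.028 for miR-20a-5p in larva against cleavage. Without blastocyst 2 and 3 and gastrulation 2, miR-17-5p became -0.81 at blastocyst and -0.093 in larva against cleavage, and miR-18c became -0.16 in the latter and -0.34 at hatching.

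At least 10 CPM in 3 libraries gave -0.0059 for miR-17-5p and -0.11 for miR-18c in larva against cleavage, -0.14 for miR-18a at gastrulation and -0.24 for miR-18c at hatching. Named microRNAs only gave -0.22, -0.15 and -0.29 for miR-17-5p, miR-18a and miR-18c in larva against cleavage, -0.26 for miR-18a at gastrulation, 0.072 for miR-18a from hatching to larva, and -0.69 for miR-18c at hatching. RLE and DESeq2 both gave 0.027 for miR-18a from hatching to larva and -0.54 for miR-18c at hatching. No filter gave 0.0036 for miR-18c and 0.23 for miR-20a-5p at blastocyst, -0.24 for miR-18c at hatching and 0.081 for miR-20a-5p in larva against cleavage.

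With 1 library left out, from cleavage to blastocyst miR-17-5p ranged from -0.58 to 0.29, miR-18a from -0.31 to 1.96, miR-18c from -1.61 to 0.25 and miR-20a-5p from -1.23 to 0.28. In larva against cleavage miR-17-5p ranged from -0.38 to 0.67, miR-18a from -0.27 to 2.21, miR-18c from -0.56 to 1.49 and miR-20a-5p from -1.12 to 0.62. miR-18a ranged from -0.73 to 0.90 at gastrulation, from -0.22 to 1.42 in the step that follows, and from -0.84 to 0.29 at hatching, while miR-18c ranged from -0.34 to 0.71 at hatching.

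Libraries of different stages share a replicate number in the titles, but the numbers did not pair them: of 45 same-number pairs, correlations of deviations from stage means ran from -0.25 to 0.36 with 6 over 0.1, and 7 of 18 libraries correlated best with their own number. With the replicate block, the 3 calls near the threshold were lost (edgeR adjusted p = 0.0711 for miR-17-3p and 0.103 for miR-20a-3p at gastrulation, 0.0677 for miR-18c at organ formation), and permutation p-values were 0.00054 for the share, 0.00021 for miR-18 and 9e-05 for both hairpins' arms. Depth limits the early stages: members with under 10 counts in a library there could differ without being called. These were miR-18a and miR-18b, and both 3p strands at cleavage and in the blastocyst. The calls of both 3p strands from blastocyst to gastrulation start from these low blastocyst counts.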
